A study of Mus musculus with 10 samples.

Results

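miR-21 was 1 of the 285 mature microRNAs (miRNAs) listed in a small-RNA sequencing table from mouse liver, and its row was found by name. The rule uses no measured value, but miR-21 was chosen with earlier results of these data known. The study set 5 livers labelled Tsc1 mutant (L-Tsc1KO animals) against 5 livers of littermate controls, all taken at 14 weeks of age. All 10 came from mice kept with free access to food and water, and no drug or diet treatment separated the groups in the labels. The promoter that removed Tsc1, the strain and the sex of the animals were not given in the sources used here, and the genotypes stand as labelled, since Tsc1 mRNA was not analysed here. A library is called below by its group and its replicate number, and the p-values measure the spread between these labelled samples.

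miRNAs are short RNAs that guide Argonaute proteins to partly complementary sites in mRNAs, mostly through the seed at the 5′ end of the miRNA, and lower the output of those mRNAs. miR-21 is widely expressed and is best known as a miRNA that rises in injured, fibrotic and tumour tissue, liver included. Its studied targets include Pdcd4, an inhibitor of translation. Tsc1 is a subunit of the TSC complex, which holds back the growth-promoting kinase complex mTORC1.

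The deposited name miR-21 carries no arm. In older naming, an unmarked name stands for the dominant arm of a hairpin, which for miR-21 is the 5p arm. The sequences below, from RefSeq on GRCm38.p6, show that arm, the other arm of the same hairpin and both paralogs in RefSeq, to show which of them share its seed. Capitals mark the seed, bases 2 to 8 from the 5′ end.
miR-21a-5p: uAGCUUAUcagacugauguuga
miR-21a-3p: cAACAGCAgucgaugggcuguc
miR-21b: uAGUUUAUcagacugauauuucc
miR-21c: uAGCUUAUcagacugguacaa
Counting from 1 at the 5′ end of miR-21a-5p, miR-21b differed from it by C4U, G18A, G21U and A22C, so its seed was changed. miR-21c differed by A16G, G18A, U19C, U20A and G21A, and its first 15 bases were the same. Of 1679 mature mouse miRNAs in RefSeq, 2 carried the seed AGCUUAU, and these were miR-21a-5p and miR-21c. Neither paralog nor the other arm had a row of its own in the table, and how the authors assigned reads that fit more than 1 of these sequences was not given in the sources used here, so a contribution of the paralogs to the miR-21 row is uncertain.

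The hairpin of Mir21a lies on the minus strand of chromosome 11, at chr11:86584067-86584158 in GRCm38 (GENCODE M21 annotation). It falls inside Vmp1 (chr11:86583865-86683836, same strand), which encodes a membrane protein of autophagy. In the 1 annotated Vmp1 transcript with an exon over it, the hairpin sits in exon 12, the last exon (chr11:86583865-86585451), within the part annotated as 3′ UTR (chr11:86583865-86585310). No other annotated miRNA hairpin with a row in the table lay within 10 kb on the same strand.

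The libraries held 6228497 to 12129069 miRNA reads. Of 45 pairs of libraries, 0 were identical and 0 differed by no more than sampling noise. The defining liver miRNA, miR-122, had the largest share in 10 of 10 libraries, with a mean of 31.1% ± 5.03 (SD, n = 10). Several libraries stood apart before any comparison: control replicate 1 and Tsc1 mutant replicate 1 held less miR-122 (24.1% and 22.8%) than the other 8 libraries, and control replicate 2 had biliary and striated muscle miRNAs well above the rest. The libraries labelled replicate 1 are therefore also left out where they bear on a value below. In whole tissue, fewer cells of a type and less RNA per cell cannot be told apart.

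miR-21 was abundant in every liver, and its level differed more among livers of 1 genotype than between the genotypes. The values are the authors' normalised read counts. In controls, replicates 1 to 5 held 1664243, 735816, 658637, 594712 and 908627 normalised reads of miR-21, a mean of 912407 ± 436402 (SD, n = 5). In Tsc1 mutants, replicates 1 to 5 held 1271121, 664402, 1034769, 539740 and 605154, a mean of 823037 ± 315636 (SD, n = 5). The highest library was a control and the lowest a mutant, and the groups overlapped between 594712 and 1271121 normalised reads, with only control replicate 1 above and only mutant replicate 4 below that stretch. From high to low, the order was control 1, mutant 1, mutant 3, control 5, control 2, mutant 2, control 3, mutant 5, control 4 and mutant 4.

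As a share of all miRNA reads of the library, miR-21 took 19.5%, 8.53%, 6.37%, 5.68% and 9.31% in control replicates 1 to 5. The mutant shares were 13.9%, 7.18%, 11.4%, 5.80% and 6.49%. In whole reads, these shares rested on 353506 (control replicate 4) to 2082610 reads (control replicate 1). The exact 95% binomial interval of the control replicate 1 share ran from 19.48% to 19.53%, and it covers counting error only, since the reads carry no molecular identifiers. Intervals of livers next to each other in the order of shares did not overlap, so the order of shares stands beyond counting error. It differed from the order of normalised reads at the low end, so the order there depended on the scaling. By share, mutant replicate 5 (6.49%) was above control replicate 3 (6.37%), and mutant replicate 4 (5.80%) above control replicate 4 (5.68%). The lowest share was thus that of a control, while the lowest level in normalised reads was that of a mutant. Each liver was 1 library, so the error of a repeated library is unknown.

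**Figure D1:**
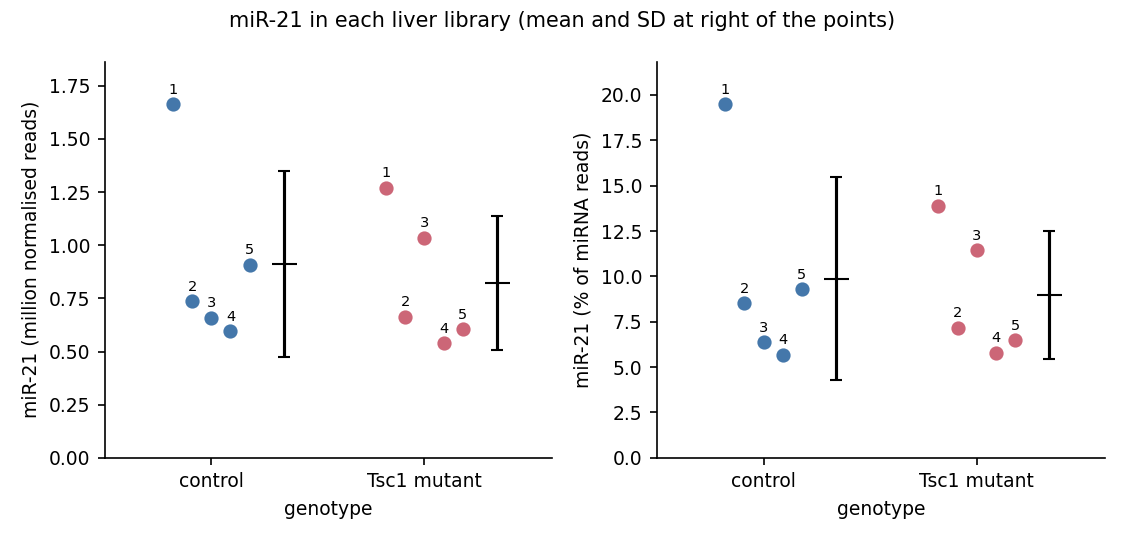
miR-21 in each of the 10 livers, as normalised reads and as a percentage of the miRNA reads of the library (y axes), by genotype (x axis), with the replicate number beside each point and the group mean ± SD. Both groups hold high and low livers, from 539740 to 1664243 normalised reads, and control replicate 1 is the highest.

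The main comparison asked whether miR-21 differed between Tsc1 mutant and control livers. It did not pass the test. The log2 fold change, mutant over control, was -0.12 ± 0.31 (SE) on the log2(normalised reads + 1) scale, with limma's adjusted p at 0.917 over all 285 miRNAs (unadjusted p = 0.704). The 95% interval ran from -0.81 to 0.57, or from 0.569 to 1.48 times the control level, so these 5 livers a group did not exclude a change of either sign within those bounds. Across the table, 37 of 285 miRNAs passed at an adjusted p under 0.05 (13.0%), of which 31 were higher (10.9%) and 6 lower (2.11%) in mutants. The median log2 fold change of all 285 was -0.06, and 86 miRNAs had a smaller absolute log2 fold change than miR-21.

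The sign of this difference rested on single livers. Without control replicate 1 the log2 fold change of miR-21 was 0.12, and without Tsc1 mutant replicate 4 it was 0.01. With both libraries labelled replicate 1 left out it was -0.06, with a 95% interval from -0.53 to 0.42. None of these values passed limma's test.

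**Figure D2:**
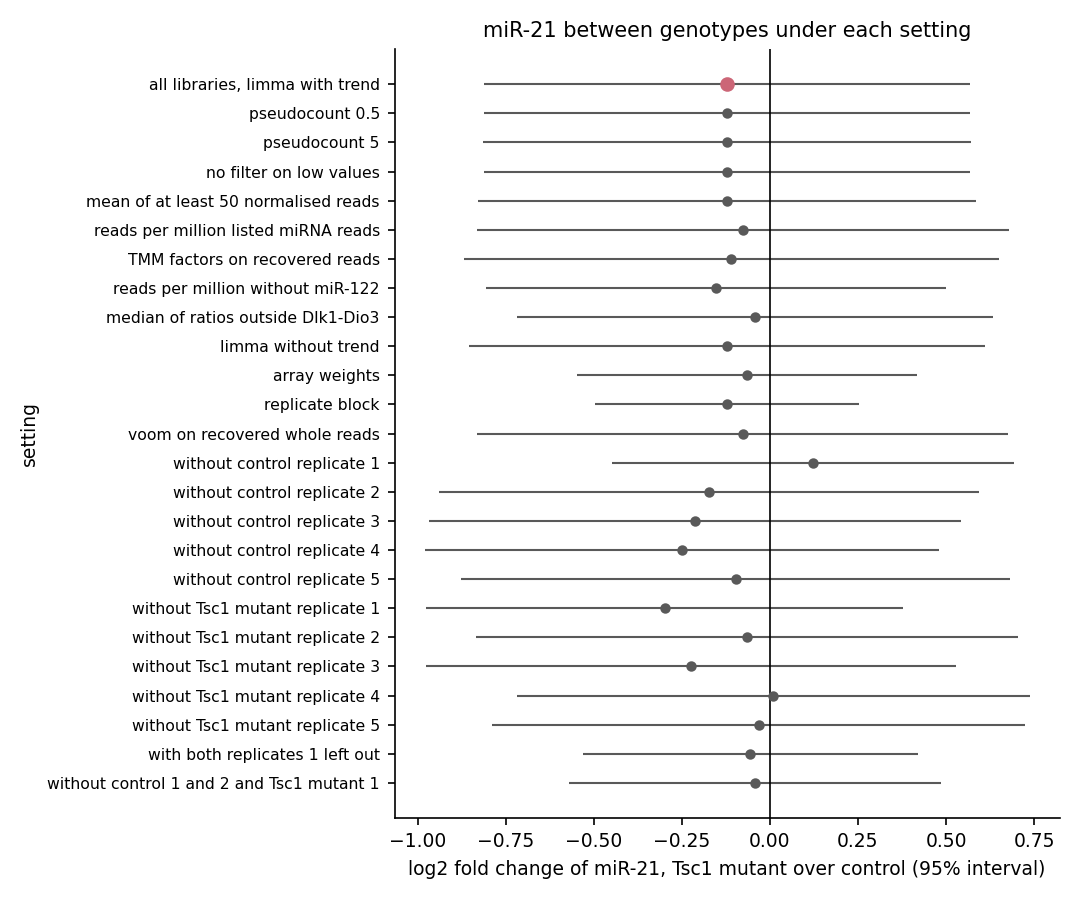
Log2 fold change of miR-21, Tsc1 mutant over control, with its 95% interval (x axis), in the fit of all 10 livers and under each other setting or left-out library (y axis). All intervals cover 0, and 2 of the 24 other estimates lie above 0.

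Measures of miR-21 that do not use the authors' scaling did not pass a test either. Its share averaged 9.88% ± 5.59 over controls and 8.96% ± 3.53 over mutants (SD, 5 livers each), a difference of -0.92 percentage points (SE 2.95) with p = 0.802 in a two-sided exact permutation test. Its log2 ratio to miR-122, which compares it with the main hepatocyte miRNA of the same library, was -1.87 ± 0.95 in controls and -1.78 ± 0.78 in mutants, a difference of 0.09 (SE 0.55, exact permutation p = 0.881). Among reads other than miR-122, the share of miR-21 was 14.3% ± 6.68 in controls and 12.5% ± 4.08 in mutants, a difference of -1.84 percentage points (SE 3.50, exact permutation p = 0.667). Over these 3 tests, the Benjamini-Hochberg adjusted exact permutation p was 0.881 for each. Before adjustment, the exact permutation p of 5 against 5 libraries can reach 0.00794 at the smallest. Without control replicate 1 the share differed by 1.49 percentage points the other way.

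By mean share over the 10 livers, miR-21 was the second most abundant miRNA, a place that rested on the libraries labelled replicate 1. Its mean was 9.42% ± 4.43 (SD, n = 10), between miR-122, the hepatocyte miRNA above it, and miR-192, a miRNA of epithelial tissues including liver and gut, at 8.10% ± 0.59. miR-148a, another miRNA abundant in hepatocytes, followed with 6.14% ± 0.75, and miR-30a with 5.02% ± 0.97. miR-21 was below miR-122 in 10 of 10 livers and above miR-30a in 10 of 10. The order against miR-192 depended on the liver: miR-21 was above it in 5 livers and below it in 5. It was above miR-148a in 9 livers, the exception being Tsc1 mutant replicate 4, where miR-21 ranked 4. With both libraries labelled replicate 1 left out, the mean share was 7.60% ± 2.02 for miR-21 and 8.19% ± 0.43 for miR-192 (SD, n = 8), which put miR-21 at rank 3. The medians over all 10 livers, 7.86% and 8.09%, gave that order too.

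**Figure D3:**
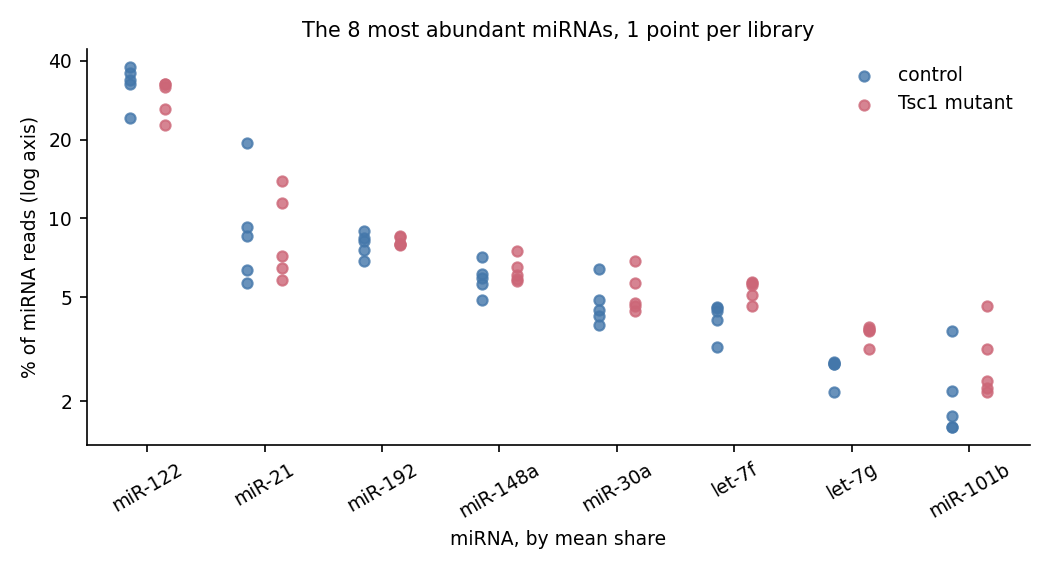
Share of miRNA reads (y axis, percent, log scale) of the most abundant miRNAs (x axis, in order of mean share), with 1 point for each liver, coloured by genotype. miR-21 runs from 5.68% to 19.5%, across the narrow band of miR-192 below it in the order.

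miR-21 and miR-192 had like mean shares and unlike spreads. The coefficient of variation over the 10 livers was 47.0% for the share of miR-21 and 7.33% for that of miR-192, and the highest liver held 3.44 times the lowest for miR-21 against 1.31 times for miR-192. Within genotype, the SD of log2 normalised reads of miR-21 was 0.59 in controls and 0.53 in mutants. The medians over the 101 miRNAs whose mean reached 1000 normalised reads were 0.34 and 0.25, and miR-21 ranked 25 and 18 from the widest. So it was in the wider part of the range, without being at its end. Among the 12 most abundant miRNAs it ranked 3. Control replicate 1 carried much of the control value: without it the SD was 0.26.

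The miRNAs whose level followed miR-21 most closely from liver to liver were miR-145, miR-23a, miR-19a, miR-186 and miR-326. The measure was Pearson's r of log2 normalised reads over the 10 livers, among the 183 miRNAs whose mean was 100 normalised reads or more. Those that ran most strongly the other way were miR-340-3p, let-7e and let-7c. RefSeq sequences matched 7 of these 8, printed to show whether a shared seed links them to miR-21. Capitals mark the seed, and for a name without an arm the arm is the one that RefSeq and older naming give it.
miR-23a-3p: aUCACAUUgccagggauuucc
miR-19a-3p: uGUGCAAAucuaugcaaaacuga
miR-186-5p: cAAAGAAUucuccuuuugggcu
miR-326-3p: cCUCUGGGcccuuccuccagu
miR-340-3p: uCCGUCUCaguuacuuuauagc
let-7e-5p: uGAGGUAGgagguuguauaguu
let-7c-5p: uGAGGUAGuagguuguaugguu
Of the 7, 0 shared the seed of miR-21, and only let-7e and let-7c shared a seed with each other.

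miR-145, a miRNA of smooth muscle and stellate cells, had r = 0.97 with miR-21. It held 4489, 982, 617, 303 and 1196 normalised reads in control replicates 1 to 5, and 3469, 596, 1823, 350 and 599 in mutant replicates 1 to 5. Its highest liver was 14.8 times its lowest, a wider range than the 3.08 times of miR-21 normalised reads, and its 3 highest livers were the 3 highest for miR-21. miR-23a, from a cluster with miR-27a and miR-24, also had r = 0.97, with 825 to 2097 normalised reads. miR-19a, of the growth-linked miR-17 to miR-92 cluster, had r = 0.97 with 115 to 2012 reads, while miR-186 and miR-326 had r = 0.96. On the other side let-7c, of the let-7 family that restrains growth genes in adult tissue, had r = -0.96. It held 47160 normalised reads in control replicate 1 and 64649 in mutant replicate 1, against 125894 to 286736 in the other 8 livers. The values for let-7e and miR-340-3p were also -0.96.

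These correlations describe 10 points that share library, scaling and depth, and they carry no test. The points are unevenly placed, since both libraries labelled replicate 1 lie at the high end. With those 2 left out, r stayed at 0.94 for miR-145, 0.91 for miR-23a, 0.90 for miR-19a, 0.88 for miR-186 and 0.86 for miR-326, and at -0.87 for let-7c and miR-340-3p and -0.88 for let-7e. Counts over the whole list moved further: 27 of 183 miRNAs had r above 0.8 and 34 had r below -0.8 over all livers, against 10 and 9 without those libraries. All 8 let-7 rows had a negative r with miR-21, from -0.96 to -0.64 (let-7g), and 5 were below -0.8. The r of miR-21 with the miR-122 share was -0.84 and that with the total reads 0.34, and their part in the pattern was not tested. For the summed miRNAs of the Dlk1-Dio3 locus, the imprinted cluster named in the title of the study, r with miR-21 was -0.19.

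**Figure D4:**
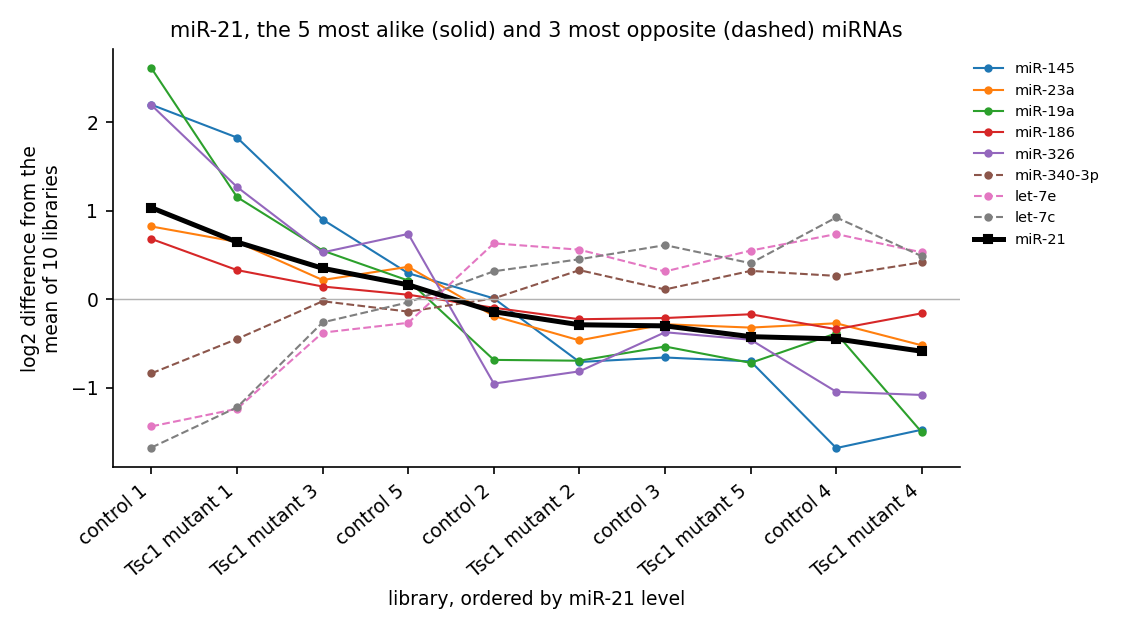
Level of miR-21 and of the miRNAs most like and most unlike it (y axis, log2 normalised reads relative to the mean of the 10 livers) in each liver (x axis, ordered by miR-21). miR-145 falls with miR-21 along most of the order, and let-7c and let-7e are lowest in the first 2 livers.

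None of the 8 passed limma's test between the genotypes. Their log2 fold changes were -0.06 for miR-145, -0.18 for miR-23a, -0.49 for miR-19a, -0.03 for miR-186 and -0.22 for miR-326, then 0.24 for miR-340-3p, 0.01 for let-7e and -0.06 for let-7c. Removing the group means left the likeness in place: with the genotype means removed, r was 0.98 for miR-145 and -0.97 for let-7c.

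Hairpins that lie beside those of these miRNAs did not all share the pattern. The following used annotated hairpins within 10 kb on the same strand, and values of r with miR-21 over the 10 livers. miR-143, the neighbour of miR-145, had r = 0.42. miR-27a and miR-24, the neighbours of miR-23a, had r = -0.87 and 0.40. In the cluster of miR-19a, r was 0.95 for miR-19b, 0.88 for miR-20a and 0.72 for miR-17. It was also 0.88 for miR-18a, which averaged only 18.2 normalised reads. miR-92a of that cluster ran the other way, with r = -0.61. Beside let-7e at -0.96, miR-125a-5p had r = -0.90 and miR-99b 0.09. Beside let-7c at -0.96, let-7b had r = -0.94 and miR-99a -0.37. A row such as miR-24 or miR-19b can hold reads from more than 1 hairpin with the same mature sequence, which the table does not separate.

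The arms of a single hairpin also parted in some cases. This comparison was chosen after the values were seen. For 15 hairpins both arms reached a mean of 100 normalised reads, and in 6 the arms had r with miR-21 of opposite sign. Of the 183 miRNAs compared, 84 had a positive r, so opposite signs are common between any rows. Whether arms of 1 hairpin part more or less often than other rows was not tested. For miR-126, the endothelial miRNA, r was 0.68 for the 5p arm and -0.91 for the 3p arm. For miR-151, the values were -0.92 and 0.77. For miR-511, a miRNA of macrophages, they were -0.88 and 0.86. miR-142, a miRNA of blood cells, had -0.44 and 0.84, and miR-340 had 0.37 and -0.96. In the sixth hairpin, miR-423, the values were -0.62 and 0.23. The 3p arm was thus the positive one in 4 of the 6 hairpins and the negative one in 2. With both libraries labelled replicate 1 left out, 5 of the 6 still had arms of opposite sign, with smaller values for several arms. In that order of arms, r was then 0.36 and -0.62 for miR-126, -0.73 and 0.69 for miR-151, and -0.61 and 0.40 for miR-511. It was -0.75 and 0.35 for miR-142 and 0.11 and -0.87 for miR-340, while miR-423 had 0.25 and 0.50. The arms of miR-362, at 0.41 and 0.74 over all livers, then had -0.44 and 0.37. The count of opposite hairpins was thus again 6 of 15, in a changed set. miR-126 shows it in reads: in control replicate 1 the 5p arm was at its highest of 10 livers, 17877 normalised reads, and the 3p arm at its lowest, 95159. 

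**Figure D5:**
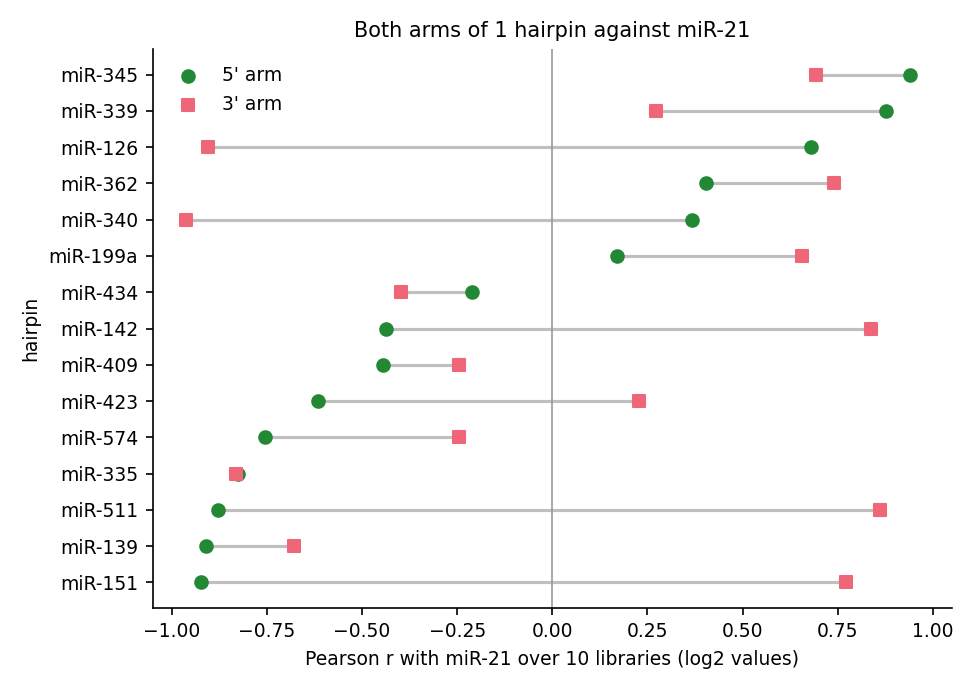
Pearson's r with miR-21 over the 10 livers (x axis) for the 5p and 3p arms of the 15 hairpins with both arms measured (y axis), joined by a line for each hairpin. In 6 hairpins the line crosses 0, and the widest are miR-511, miR-151 and miR-126.

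miR-21 belongs to several groups of miRNAs known from liver disease, and the rest of each group was read in the same test. Of 12 other miRNAs reported to rise in liver fibrosis or in activated stellate cells, 0 passed in either direction, and the median log2 fold change was -0.09. The most abundant, miR-27b, a regulator of lipid genes, had -0.04, miR-199a-3p, a fibroblast miRNA, had 0.01, and miR-221, a growth-linked miRNA, had -0.07. The widest values were 1.30 for miR-34a, a p53 target (limma's adjusted p = 0.424), and -0.55 for miR-222, which lies in 1 cluster with miR-221 (limma's adjusted p = 0.110). The background in either direction was the 13.0% of the table.

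Of 11 antifibrotic miRNAs, 1 rose, 0 fell and the median was 0.09, where 10.9% of all 285 rose and 2.11% fell. The 1 was miR-29a, which represses collagen genes: controls averaged 92084 ± 7801 normalised reads and mutants 116048 ± 5673 (SD over 5 livers). The log2 fold change was 0.34 ± 0.10 (SE) and limma's adjusted p 0.0395. That call was lost under 14 of 24 alternatives, among them leaving out any 1 library other than control replicate 1, with limma's adjusted p from 0.00527 to 0.117 over the 24. Its log2 fold change stayed between 0.30 and 0.42 under all 24. Of the most abundant members, miR-122 had -0.21, miR-101b 0.40 and miR-101a 0.09, none of which passed.

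Of 19 other miRNAs reported as raised in hepatocellular carcinoma, 0 passed in either direction, and the median was -0.12. miR-92a, of the same cluster as miR-19a, had -0.47 (limma's adjusted p = 0.41). miR-25, from a cluster related to that of miR-92a, had -0.05, and miR-151-5p had -0.08. miR-210, which hypoxia induces, had 0.96 without passing (limma's adjusted p = 0.166). Of 19 miRNAs reported as lowered in that cancer, 1 rose (miR-29a again), 0 fell, and the median was -0.06. Beside both of these lists, 10.9% of all 285 rose and 2.11% fell.

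The counts of the fibrosis and tumour lists depended on control replicate 1, the liver with the most miR-21. miR-34a held 537, 41, 27, 34 and 52 normalised reads in control replicates 1 to 5 and 503, 113, 207, 59 and 145 in mutant replicates 1 to 5. Both livers labelled replicate 1 were thus the highest of their group, and the other 4 mutants were all above the other 4 controls. Without control replicate 1 the log2 fold change of miR-34a was 2.06 and limma's adjusted p 0.0210. With both libraries labelled replicate 1 left out, these were 1.64 and 0.0156.

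miR-210, too, was high in both livers labelled replicate 1. It held 555 normalised reads in control replicate 1 and 153 to 216 in the other controls, against 317 to 864 in the mutants. Without control replicate 1 its log2 fold change was 1.29, with limma's adjusted p at 0.00948. The same omission turned miR-222 (-0.68, limma's adjusted p = 0.0212) and miR-92a (-0.73, limma's adjusted p = 0.0210) into calls lower in mutants. The fibrosis list then had 1 riser and 1 faller of 12, and the list raised in carcinoma 1 riser and 2 fallers of 19. Among all 285 miRNAs, 44 were called without control replicate 1, of which 34 were higher and 10 lower in mutants. With both libraries labelled replicate 1 left out, the counts of the 2 lists were the same. In that fit 46 of all 285 miRNAs were called, 35 higher and 11 lower. Whether either list differed from the other miRNAs in these 2 fits was not tested. miR-21 passed in neither case.

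Of 10 other inflammation-linked miRNAs, 0 passed in either direction (beside 13.0% of all 285), and the median log2 fold change was -0.20. miR-155, induced in activated macrophages, had 0.49 (limma's adjusted p = 0.338), miR-146a, a brake on NF-kB signalling, had -0.21, miR-125a-5p had -0.43 and miR-142-5p 0.08. Their r with miR-21 was above 0 for 7 of 10, with a median of 0.69, beside 84 of 183 and a median of -0.16 over the miRNAs compared. The sets are unlike, since the 183 have a mean of at least 100 normalised reads, which miR-155 and others of the 10 did not reach. With both libraries labelled replicate 1 left out, r was above 0 for 6 of 10, with a median of 0.23. Over the 183 it was then above 0 for 77, with a median of -0.06. In the fibrosis list r was above 0 for 6 of 12 (median -0.03), and in the list raised in carcinoma for 10 of 19 (median 0.08). With both libraries labelled replicate 1 left out, these became 3 of 12 (median -0.29) and 9 of 19 (median -0.04).

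Markers of the cell types in liver gave the setting for these values. Their counts of calls stand beside 10.9% of all 285 miRNAs called higher in mutants and 2.11% called lower. Among 5 hepatocyte markers, 1 rose: miR-802, for which controls averaged 495 ± 165 normalised reads and mutants 1583 ± 285 (SD over 5 livers). With a log2 fold change of 1.72, limma's adjusted p was 0.000258. Its r with miR-21 was -0.22. The 6 stellate and smooth muscle markers had 0 calls. Their summed level ran from 168823 to 369439 normalised reads in controls and from 136276 to 249924 in mutants. Their r with miR-21 was above 0 for 5 of 6, the exception being miR-214 at -0.79. With both libraries labelled replicate 1 left out, r was above 0 for 2 of 6. The most abundant of them was miR-143, with a log2 fold change of -0.39, followed by miR-199a-3p and miR-199b at 0.01 each. The rows of miR-199a-3p and miR-199b also had the same r with miR-21, 0.66, so they may not be separate signals in these counts.

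Leukocyte markers (7 miRNAs) had 0 calls and summed to 17644 to 29326 normalised reads in controls and 16797 to 22575 in mutants. Here r with miR-21 was above 0 for 5 of 7, with a median of 0.59. With both libraries labelled replicate 1 left out it was again above 0 for 5 of 7, with a median of 0.21. miR-342-3p, a lymphocyte miRNA, had a log2 fold change of -0.26. For the 2 endothelial rows, both arms of miR-126, there were 0 calls and the sums ran from 113036 to 160119 in controls and from 114892 to 160253 in mutants. The 3 erythroid rows (miR-486, miR-451 and miR-144) had 0 calls and sums of 3886 to 5924 in controls and 3431 to 6533 in mutants.

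In the biliary and striated muscle lists, control replicate 2 lay far above the other controls. The 5 biliary epithelial markers had 0 calls and a median log2 fold change of -0.74, with sums of 4996 to 35789 in controls and 3126 to 7014 in mutants, and r with miR-21 was above 0 for 0 of 5. Values for the most abundant were -0.68 for miR-200b, -0.74 for miR-200a and -0.89 for miR-200c. The 3 striated muscle markers had 0 calls and sums of 268 to 5638 in controls and 151 to 919 in mutants, with -1.27 for miR-1a, -1.99 for miR-133a and 0.73 for miR-206. Control replicate 2 held the highest sum of each list, and it ranked 5 of the 10 livers for miR-21. Without that library the medians were -0.15 for the biliary and -0.50 for the striated muscle list, and the calls were still 0. Over all 12 lists, which overlap, 75 distinct miRNAs other than miR-21 were measured: 2 rose (2.67%, beside 10.9% of all 285) and 0 fell (beside 2.11%). Their median log2 fold change was -0.10, beside -0.06 over all 285. The 285 also hold the miRNAs of the Dlk1-Dio3 locus, of which the lists hold none, and the part of that locus in the 10.9% was not tested.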

How the data were processed

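Small-RNA libraries of 5 control and 5 Tsc1 mutant livers were read from 1 deposited table. Its values are a signal per miRNA, normalised reads that the authors scaled with DESeq, per the submitters' processing notes (no version given); the aligner, annotation and build were not given in the sources used here. In each library 100% of values were whole multiples, within 0.001, of what 1 read was worth (0.711 to 1.68 normalised reads), and shares and depths (6228497 to 12129069 reads) came from those whole reads. Genotypes were compared with limma 3.58.1 (R 4.3.3, intensity trend) on log2(value + 1) over 285 miRNAs (a minimum mean of 5, which all rows passed), with Benjamini-Hochberg adjustment and a threshold of 0.05. This test was also run on simulated data with noise independent between miRNAs. In these livers many miRNAs moved together, so that run does not measure the error of the test here. Single values used exact two-sided permutation over 252 assignments of libraries (scipy 1.17.1). Tables and figures used numpy 2.4.6, pandas 2.3.3 and matplotlib 3.10.9.

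The member and the lists were chosen with earlier results of these data known. Named were miR-21, the miRNAs next to it in abundance, of each list its 3 most abundant and every called member, the 5 highest and 3 lowest r with miR-21, and every miRNA of its seed. miR-34a, miR-210, miR-222, miR-155, the let-7 rows, the cluster neighbours and the arm pairs fall outside that rule and were named after their values were seen. miR-130b and miR-452 of the lists had no row. Results for 1 further list are not reported here. Alternatives covered pseudocounts (0.5, 5), filters (none, 50), other scalings, array weights, a replicate block and left-out libraries.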

Additional observations from a re-analysis of the deposited data

Results flagged for a closer look

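In 7 of 46 groups of 5 libraries that were looked at, 1 library lay far from the other 4, with its gap to the nearest over 0.71 of the range. Chance gives about 1 in 20 only where values are normally distributed. The values here were shares and reads that were not on a log scale, so that rate may not hold for them. The groups are also not independent. In particular, miR-145, miR-19a and miR-326 were picked for their high r with miR-21 over these same libraries, so their flags are not separate from that of miR-21. For 4 of the 7 the library was control replicate 1 at the high end. There, miR-21 took 19.5% of reads against 5.68% to 9.31% in the other controls, miR-145 had 4489 normalised reads against 303 to 1196, miR-19a had 2012 against 203 to 380, and miR-326 had 343 against 35.3 to 124. The summed endothelial markers were lowest in the same library, 113036 against 151157 to 160119 normalised reads. Control replicate 2 was high in the summed biliary epithelial markers, 35789 against 4996 to 6088, and in the summed striated muscle markers, 5638 against 268 to 559. No cause was tested.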

How the results depend on the processing

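Under 24 alternatives, limma's log2 fold change of miR-21 lay between -0.30 and 0.12 with an adjusted p of 0.676 to 0.999, and 0 passed. The extremes came from leaving out single libraries: -0.30 without Tsc1 mutant replicate 1 and 0.12 without control replicate 1, with 0.01 without Tsc1 mutant replicate 4; the 14 other settings gave -0.15 to -0.04. The replicate block gave -0.12 with an adjusted p of 0.689 by limma and 45 called miRNAs. The labels do not say whether the shared numbers pair the samples. Deviations of same-numbered libraries had r from -0.02 to 0.81 across miRNAs, and 4 of 10 libraries correlated best with their own number. These values do not decide whether the samples are paired. The 37 calls became 22 with a mean of at least 50 reads and 63 with array weights, of which 40 were higher. The calls lower in mutants, 6, ranged from 2 to 13. Leaving out 1 library, the share of miR-21 differed by -2.15 to 1.49 percentage points, its share of reads other than miR-122 by -3.22 to 1.01, and its log2 ratio to miR-122 by -0.18 to 0.48. Of these ratios, 4 changed sign: -0.07, -0.13, -0.18 and -0.05 without control replicates 3 and 4 and Tsc1 mutant replicates 1 and 3. With both libraries labelled replicate 1 left out, an alternative chosen after seeing the data for the spread, the share differed by 0.26 points and the control SD was 0.26. That SD ran from 0.26 (without control replicate 1) to 0.68. For the 8 miRNAs most like or unlike miR-21, 0 of 120 alternative values of r changed sign, and their size stayed between 0.745 and 0.987. voom on recovered whole reads and the list counts, order of shares and arm pairs without single libraries were added after seeing the data. The planned edgeR and DESeq2 fits were not run. The causes were not tested. Depth did not limit miR-21, whose least sampled library held 353506 of its reads.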
